A study of Mus musculus with 8 samples.

Results

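The genes of the major histocompatibility complex (MHC) class II presentation pathway were examined for acetylation of histone H3 at lysine 27 (H3K27ac), which marks active promoters and enhancers, in 4 mouse breast tumors. The set held 8 genes listed by name for their role in the pathway, out of 21938 protein-coding genes: H2-Aa, H2-Ab1, H2-Eb1, H2-DMa, H2-DMb1, H2-Oa, Cd74 and Ciita. For each gene, peaks were counted in the gene body plus 20 kb on either side, here called its window. All mice were Balb/c, lacked Rag1 and so had no T or B cells of their own, carried the polyoma middle T oncogene (PyMT) under the MMTV promoter, which drives it in mammary epithelium, and at the age of 4 weeks had been given wild-type CD4+ T cells. The 2 control tumors had the genotype PyMT;Rag1KO. The 2 test tumors had the genotype K14-TSLPtg;PyMT;Rag1KO, in which the keratin 14 promoter, active in skin and other stratified epithelia, drives the cytokine thymic stromal lymphopoietin (TSLP). In the sample titles the word tumor stands for controls and cyst for the test group. The tumors came from separate mice, and the paper calls them advanced. In its studies of spontaneous tumors, animals were harvested at a set tumor diameter or on signs of distress or weight loss. The comparison asked how tumors of mice with and without the TSLP transgene differed at the genes that present antigen to CD4+ T cells.

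MHC class II molecules are pairs of an alpha and a beta chain that display peptides of engulfed proteins to CD4+ T cells. The invariant chain CD74 escorts new class II molecules to endosomes, H2-DM exchanges its remnant for a peptide, and H2-O holds H2-DM back. Transcription of these genes depends on CIITA, a coactivator without DNA binding of its own, which docks on the RFX, CREB and NF-Y factors bound to the X1, X2 and Y boxes just upstream of class II genes. Dendritic cells, macrophages and B cells express class II genes at rest, and interferon gamma can induce them in many other cells, epithelial cells included.

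The promoters of 5 of the 8 genes were in the RefSeq table (GRCm38.p6, the assembly of mm10), while H2-Ab1, Cd74 and Ciita were not. Those of the classical chains H2-Aa and H2-Eb1, of H2-DMb1 and of H2-Oa are shown first, because peaks beside the first pair differed between tumors and no tumor had a peak at the other pair. Each is the 250 bases before the RefSeq start, 5′ to 3′ on the strand of the gene: H2-Aa at chr17:34287824-34288073 (minus strand), H2-Eb1 at chr17:34305617-34305866 (plus), H2-DMb1 at chr17:34152941-34153190 (plus) and H2-Oa at chr17:34092129-34092378 (plus). Capitals mark the X1 core GCAACNG, the X2 core TGACG and the Y core ATTGG on either strand, and the X2 cores of H2-Aa on the 2 strands overlap.
H2-Aa: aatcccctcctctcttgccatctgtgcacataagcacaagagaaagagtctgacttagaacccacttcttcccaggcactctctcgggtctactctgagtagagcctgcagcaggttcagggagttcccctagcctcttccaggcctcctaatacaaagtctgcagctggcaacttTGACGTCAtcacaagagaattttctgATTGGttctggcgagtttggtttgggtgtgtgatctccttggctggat
H2-Eb1: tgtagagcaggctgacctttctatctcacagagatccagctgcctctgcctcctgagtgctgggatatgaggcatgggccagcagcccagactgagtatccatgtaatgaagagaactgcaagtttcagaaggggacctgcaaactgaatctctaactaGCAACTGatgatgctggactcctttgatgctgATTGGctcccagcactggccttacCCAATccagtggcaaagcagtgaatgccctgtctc
H2-DMb1: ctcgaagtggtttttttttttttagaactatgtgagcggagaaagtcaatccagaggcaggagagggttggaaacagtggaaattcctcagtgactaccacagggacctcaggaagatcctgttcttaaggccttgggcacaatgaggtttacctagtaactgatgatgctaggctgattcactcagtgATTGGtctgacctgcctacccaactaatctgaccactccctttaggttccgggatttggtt
H2-Oa: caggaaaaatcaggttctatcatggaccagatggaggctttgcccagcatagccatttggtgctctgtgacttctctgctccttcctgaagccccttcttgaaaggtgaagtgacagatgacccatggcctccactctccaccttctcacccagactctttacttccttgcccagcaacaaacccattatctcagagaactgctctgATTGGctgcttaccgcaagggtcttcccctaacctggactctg
The H2-Aa promoter held X2 cores from base -74 and base -71 and a Y core from base -48, counted from the RefSeq start. In H2-Eb1 an X1 core began at base -91 and was followed on the same strand, after 25 bases, by a Y core at base -59, with another Y core on the opposite strand at base -35. The promoters of H2-DMb1 and H2-Oa each held a single Y core, at bases -61 and -43. H2-DMa had 2 promoters in the table, of which the upstream one held none of these letters and the other a Y core at base -198.

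Over 300 bases around each start, 5 of the 6 promoters of these genes held a Y core, against 37.4% of all 32851 RefSeq promoters. An X1 core was in 1 of the 6 (12.7% of all promoters), and an X2 core in 1 of the 6 (20.8%). The H2-Eb1 arrangement, an X1 core followed by a Y core within 40 bases on the same strand, was in 0.548% of all promoters. None of the 6 (0) held the interferon-gamma-activated sequence TTCNNNGAA, which was in 8.30% of promoters. These are matches of letters and not measured binding, and a missing match says only that the letters were not in the window searched. All sequences printed here are those of the C57BL/6J reference, whose MHC haplotype differs from that of Balb/c. The bases of the tumors themselves may differ and were not read.

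The peaks of the 4 tumors numbered 69861 in control 1 and 67850 in control 2, against 65763 in test 1 and 59762 in test 2. Read depth behind them is unknown. On average 7.97%, 7.92%, 8.48% and 7.22% of a gene window lay in peaks in these tumors, so that gene windows as a whole were covered most in test 1 and least in test 2. Of 12 luminal epithelial markers 11 had a peak in at least 1 tumor, with Foxa1 at 0, where 78.6% of all genes had one. The window of Krt8, a luminal keratin chosen after its values were seen, was covered to 40.3%, 38.6%, 40.3% and 40.2%.

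Coverage, the percent of a window lying in peaks, was higher in both control tumors than in both test tumors at 5 of the 8 genes: H2-Aa, H2-Ab1, H2-Eb1, Cd74 and Ciita. The same held for 12.9% of the 17253 genes with a peak in any tumor. Coverage was higher in both test tumors at 0 of the 8, against 18% of genes. In H2-DMa, H2-DMb1 and H2-Oa the groups overlapped. The mean over the 8 windows came to 9.14% in control 1 and 8.48% in control 2, against 6.20% in test 1 and 4.45% in test 2. That made 8.81 ± 0.469% in control and 5.32 ± 1.24% in test tumors (SD, n = 2 each), a difference of -3.48 percentage points that ranged from -4.69 to -2.28 over the 4 possible pairs of a test and a control tumor. The difference was negative for all 8 genes, as for 46.7% of all covered genes, but at H2-DMa (-0.316 points), H2-DMb1 (-0.0647) and H2-Oa (-0.0187) it was near 0 and turned positive when the same number of peaks was kept in each tumor (0.263, 0.119 and 0.197). The median over the 8 was -3.52 points, where the median over all covered genes was 0.0537 and the central 95% of genes ran from -4.62 to 3.31. With 2 tumors against 2 the smallest two-sided p of an exact permutation test is 0.333, and no test was run on these differences. In bulk tumors, fewer cells of a type and less acetylation per cell cannot be told apart.

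**Figure D1:**
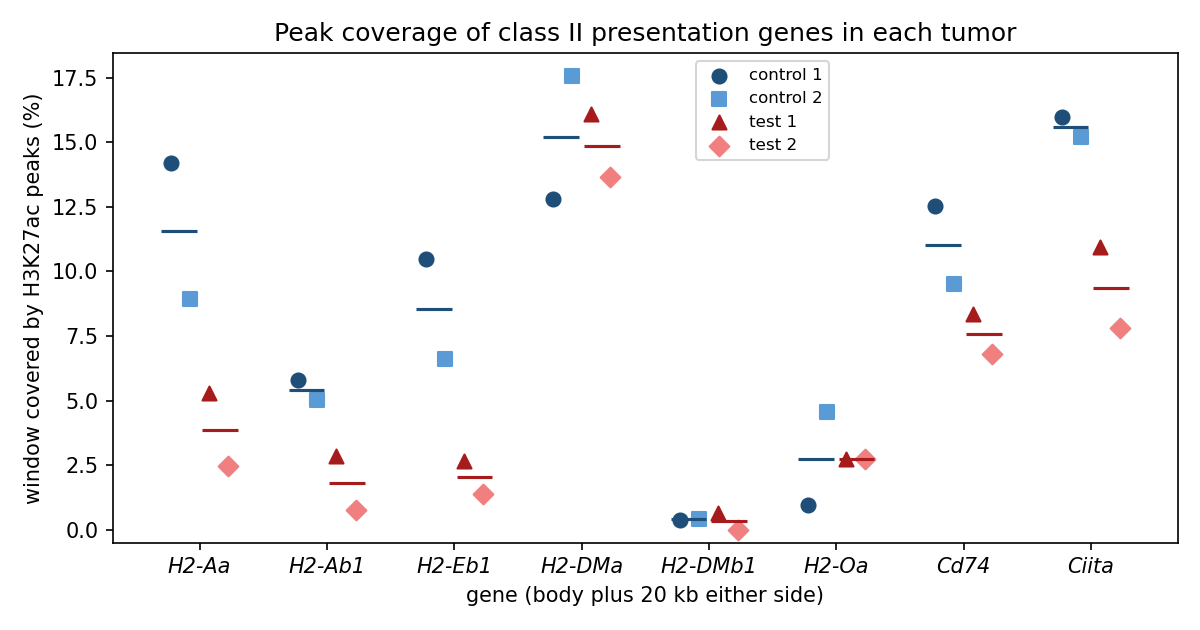
Each point is the percent of a gene's window (gene body plus 20 kb either side) covered by H3K27ac peaks in one tumor, and the short lines are the means of the 2 control (blue) and 2 test (red) tumors. Both control points lie above both test points at H2-Aa, H2-Ab1, H2-Eb1, Cd74 and Ciita, while the groups overlap at H2-DMa, H2-DMb1 and H2-Oa.

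Of the 5 genes, the classical chains had the lowest test coverage relative to control. H2-Eb1, the beta chain of the I-E molecule (chromosome 17, 34305867 to 34316674, plus strand), had 10.5% of its window in peaks in control 1 and 6.61% in control 2, against 2.66% in test 1 and 1.39% in test 2. Its control mean of 8.55 ± 2.75% stood 4.22-fold above the test mean of 2.02 ± 0.9004% (SD, n = 2 each), a difference of -6.52 points (pairings -9.10 to -3.94). The peaks in the window numbered 8, 7, 5 and 2. Within the gene body alone coverage was 13.1%, 7.79%, 1.95% and 0%, so test 2 had no peak in H2-Eb1 itself.

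H2-Aa, the alpha chain of I-A (34282744 to 34287823, minus strand), was covered to 14.2% in control 1 and 8.93% in control 2, against 5.28% in test 1 and 2.46% in test 2. The means were 11.6 ± 3.73% and 3.87 ± 1.99% (SD, n = 2 each), which differed by -7.69 points (pairings -11.7 to -3.65). The window reached peaks of both neighbouring chains, and peaks inside H2-Aa separated the tumors differently: over the gene body coverage was 12.5%, 4.88%, 5.47% and 0%, with test 1 just above control 2. With a flank of 5 kb the values were 6.13%, 1.65%, 1.84% and 0%, and the groups overlapped as well.

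H2-Ab1, the beta chain of I-A (34257689 to 34269419, plus strand), was covered to 5.79% in control 1 and 5.01% in control 2, but 2.84% in test 1 and 0.781% in test 2. The control mean of 5.40 ± 0.552% was 2.98-fold the test mean of 1.81 ± 1.46% (SD, n = 2 each), a difference of -3.59 points (pairings -5.01 to -2.17). The 2 control tumors had 7 peaks each here, test 1 had 4 and test 2 had 1. The gap was wider in the gene body, where coverage reached 18.7% in control 1 and 19.97% in control 2, but 8.76% in test 1 and 3.44% in test 2.

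The windows of these 3 genes overlap, and with each base counted once they form a single stretch of 99.0 kb with 17 acetylated regions, a region being the joined overlapping peaks of all tumors. In this stretch control 1 had 14 peaks over 7.69 kb, control 2 had 13 over 5.70 kb, test 1 had 8 over 2.55 kb and test 2 had 3 over 1.11 kb. Of the 17 regions, 10 had a peak in a control tumor and in no test tumor, and 1 the reverse, against 22.04% and 17.5% of all regions in gene windows. Only 2 regions were present in all 4 tumors. The first began just after the start of the coding transcripts of H2-Ab1 (34263225 to 34264322) and was covered over 924 bp, 571 bp, 819 bp and 404 bp. The other lay between H2-Aa and H2-Eb1 (34295439 to 34297273), with 1729 bp and 1439 bp in the control tumors against 581 bp and 705 bp in the test tumors.

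The centre of that intergenic region is shown because every tumor had peaks in this region between both genes, at chr17:34296206-34296505 (GRCm38.p6, plus strand, 300 bases), with the X2 and Y cores of either strand in capitals.
Intergenic region: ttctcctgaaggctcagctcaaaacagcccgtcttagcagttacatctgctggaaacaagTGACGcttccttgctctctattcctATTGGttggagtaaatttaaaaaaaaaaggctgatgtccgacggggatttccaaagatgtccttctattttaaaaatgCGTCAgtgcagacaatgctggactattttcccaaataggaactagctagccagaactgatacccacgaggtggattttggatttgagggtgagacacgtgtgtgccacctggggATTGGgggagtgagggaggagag
In control 2 and both test tumors these bases begin in a gap between 2 peaks of the region, and the first X2 core and the first Y core lie in that gap. The stretch held X2 and Y cores but no X1 core followed by a Y core within 40 bases. Over the central 300 bases of the 55 regions in all 8 windows, 3 held an X1 core, 7 an X2 core, 12 a Y core and 7 the interferon-gamma-activated sequence, and 0 the X1 and Y pair. Over all 91238 regions of the genome the shares were 9.97%, 12.3%, 31.0%, 9.98% and 0.243%.

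**Figure D2:**
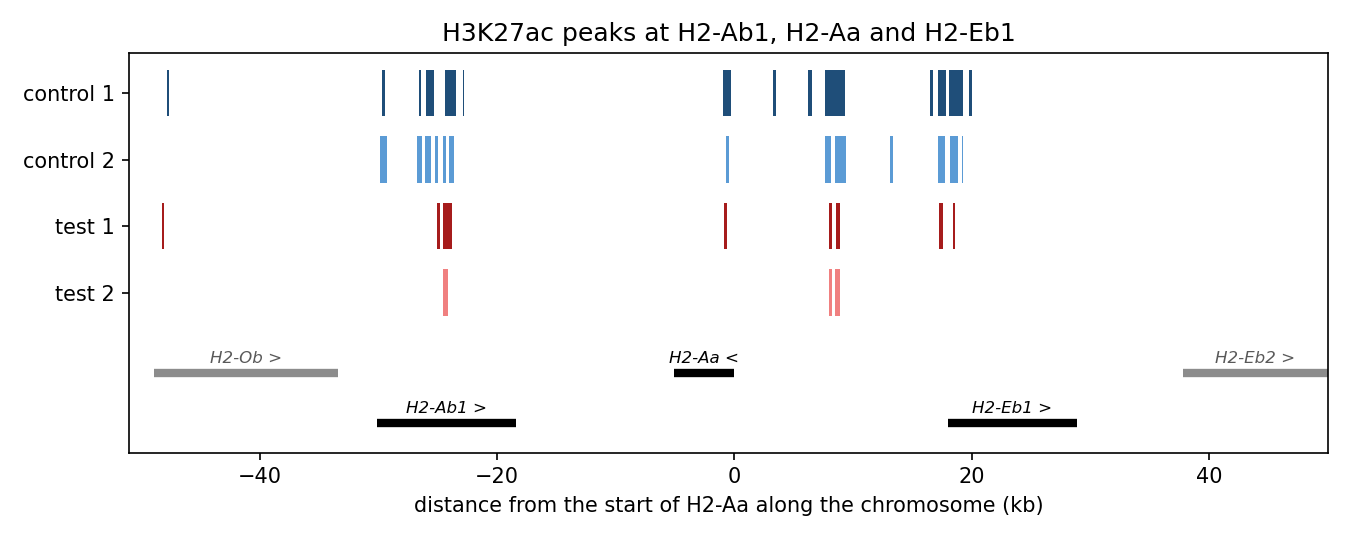
H3K27ac peaks of each tumor (coloured blocks, to scale) around H2-Ab1, H2-Aa and H2-Eb1, with gene bodies below (black for these genes, grey for others, arrowheads for strand) against distance from the start of H2-Aa in kb. The tracks thin out from 14 peaks in control 1 and 13 in control 2 to 8 in test 1 and 3 in test 2 over the joined windows.

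At the coding starts of these 3 genes, H2-Eb1 separated the groups and H2-Aa and H2-Ab1 did not. Within 1 kb of the H2-Eb1 start 80.9% of bases were in peaks in control 1 and 61.8% in control 2, against 22.9% in test 1 and 0% in test 2. The regions there lay on either side of the start, at 34304959 to 34305619 (635 bp, 599 bp, 282 bp and 0 bp) and at 34305912 to 34307130 (1219 bp, 842 bp, 211 bp and 0 bp). The printed H2-Eb1 promoter with its X1 and Y cores fell in the gap between them but for its first bases. At H2-Aa the region at the start (34286874 to 34287508) covered 635 bp, 248 bp, 278 bp and 0 bp, downstream of the printed promoter. Around the coding start of H2-Ab1 the shares were 57.5%, 42.2%, 50.3% and 19.8%, so this start carried a peak in every tumor and the groups overlapped.

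Cd74, the invariant chain (chromosome 18, 60803848 to 60812652, plus strand), was covered to 12.5% in control 1 and 9.51% in control 2, against 8.35% in test 1 and 6.79% in test 2. The means were 11.03 ± 2.14% and 7.57 ± 1.10% (SD, n = 2 each), a 1.46-fold ratio and a difference of -3.46 points (pairings -5.75 to -1.16). Much of this lay in the body of the neighbouring gene Tcof1, which encodes a nucleolar protein and is named after its values were seen, with 3.73 kb of 6.12 kb in control 1, 3.19 kb of 4.64 kb in control 2, 3.09 kb of 4.08 kb in test 1 and 2.38 kb of 3.32 kb in test 2. Outside Tcof1 peaks covered 2.39 kb, 1.45 kb, 0.989 kb and 0.939 kb, with both control tumors above both test tumors. In the body of Cd74 coverage was 24.2%, 16.5%, 11.2% and 10.7%. A region at the start of Cd74 (60803845 to 60804111) held peaks of 267 bp and 205 bp in the control tumors and none in the test tumors. The largest region in the gene body (60805025 to 60806723) was present in all 4 tumors, over 1654 bp, 1244 bp, 989 bp and 939 bp. With a flank of 50 kb, which takes in more of the neighbouring genes, the values were 14.5%, 11.1%, 11.7% and 7.26%, and the groups overlapped.

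H2-DMa, the alpha chain of the peptide-loading molecule H2-DM (chromosome 17, 34119541 to 34139101, plus strand), differed from the classical chains in having no separation of the groups. Its coverage was 12.8%, 17.6%, 16.1% and 13.6% in control 1, control 2, test 1 and test 2, a difference of -0.316 points (pairings -3.94 to 3.31). A single region of 6401 bp (34117964 to 34124364), shared with the start of Brd2, a bromodomain gene transcribed the other way, made up most of it, with 6180 bp, 6401 bp, 6180 bp and 6010 bp. It was the only region at the promoter of one of the 8 genes that was present in all 4 tumors. H2-DMa has a further coding start at 34135628, with 2 coding transcripts against 1 at the first. Within 1 kb of this further start coverage was 0%, 0%, 15.3% and 0%. Outside the region shared with Brd2, peaks covered 1447 bp, 4067 bp, 3416 bp and 2113 bp, again with overlapping groups.

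The genes of H2-DMb1, the partner chain (34153072 to 34160230, plus strand), and H2-Oa, the alpha chain of H2-O (34092340 to 34095234, plus strand), carried no peak in the gene body in any tumor. The H2-DMb1 window was covered to 0.367%, 0.422%, 0.660% and 0%, which is 1 peak in each tumor but test 2. The H2-Oa window was covered to 0.944%, 4.56%, 2.74% and 2.72% with 2, 5, 3 and 4 peaks, none within 1 kb of its start. These windows and that of H2-DMa join into a stretch of 107.9 kb, in which peaks numbered 7, 11, 8 and 7 and covered 7.63 kb, 10.5 kb, 9.60 kb and 8.31 kb, so the 2 control tumors held the lowest and the highest covered length.

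Ciita, the coactivator gene (chromosome 16, 10480059 to 10528418, plus strand), was covered to 15.97% in control 1 and 15.2% in control 2, but 10.9% in test 1 and 7.81% in test 2. The control mean of 15.6 ± 0.548% was 1.66-fold the test mean of 9.37 ± 2.21% (SD, n = 2 each), a difference of -6.21 points (pairings -8.16 to -4.26). Its window held 16, 14, 7 and 9 peaks, of which 12, 11, 5 and 6 lay upstream of or in the gene and the rest past its end. Ciita is known for separate promoters, the first used in dendritic and other myeloid cells, a later one in B cells and the last in cells exposed to interferon gamma. The annotation placed coding starts at 0 bp, 8220 bp and 9687 bp from the gene start, and within 1 kb of any of them there were 0 peaks in every tumor. The peak closest to the last start lay 9599 bp away in control 1 and 8803 bp in control 2, against 20594 bp in test 1 and 10662 bp in test 2.

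The regions in the Ciita window lay upstream of the gene, inside it past the coding starts, and past its end. The widest region (10510289 to 10513694) was in all 4 tumors, over 3367 bp, 3406 bp, 3345 bp and 2162 bp. A further region near the end of the gene (10523621 to 10526358) covered 2020 bp, 2738 bp, 1687 bp and 995 bp, and the widest of the 3 regions between them (10515202 to 10516681) 1444 bp, 498 bp, 177 bp and 0 bp. Upstream of the gene, 10466764 to 10468086 was covered over 1167 bp, 1303 bp, 1063 bp and 585 bp. The antiparallel gene Dexi overlaps the later part of Ciita, so the regions there lie in both genes. The promoters of Dexi and of Clec16a, a regulator of mitophagy, also fell in the window, and their coverage did not separate the groups: 52.1%, 50.8%, 54.4% and 51.3% at Dexi and 42.5%, 48.3%, 59.2% and 43.7% at Clec16a.

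**Figure D3:**
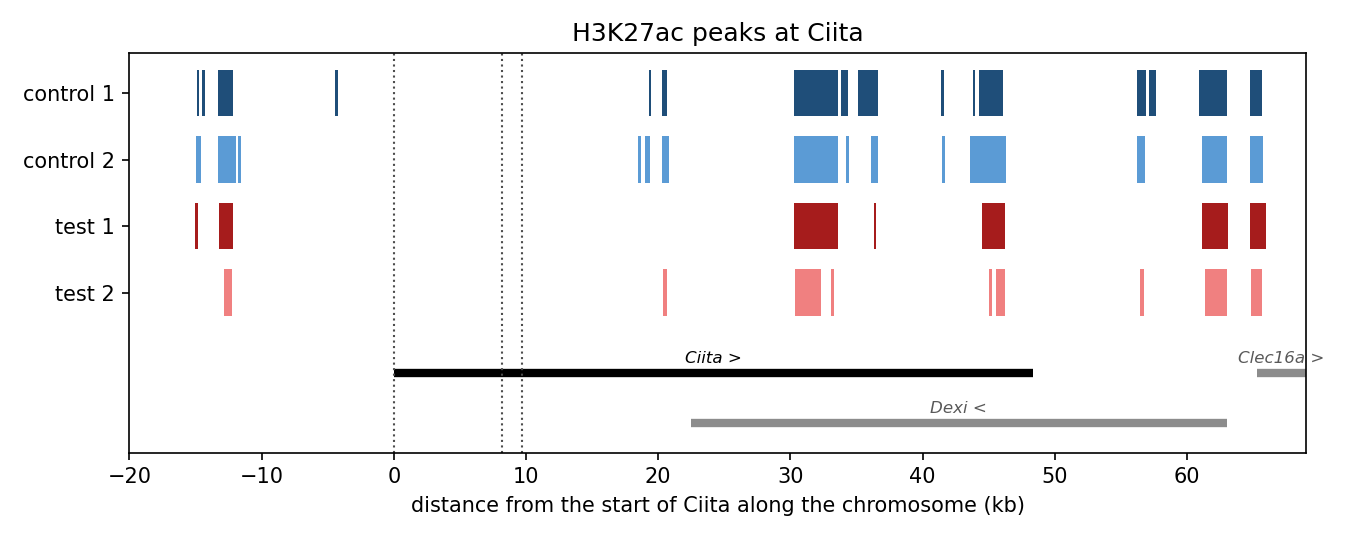
H3K27ac peaks of each tumor (coloured blocks, to scale) over the Ciita window against distance from the annotated start of Ciita in kb, with gene bodies below and dotted lines at the 3 coding starts. No peak touches a coding start in any tumor, and the whole window holds 16 peaks in control 1 and 14 in control 2, against 7 in test 1 and 9 in test 2.

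Region by region, the 8 windows joined into 4 stretches of 344 kb with 55 acetylated regions. Of these, 11 were found in each control tumor but not in test 1 or test 2 (20%, where the share over all 72149 regions in gene windows was 3.28%). The reverse was seen in 0, against 1.49% of regions. Regions present in all 4 tumors numbered 13, which is 23.6% against 40.1% of regions in gene windows. A further 11 were in control 1 alone (20% against 9.30%), 4 in control 2 alone (7.27% against 9.45%), 2 in test 1 alone (3.64% against 8.40%) and 1 in test 2 alone (1.82% against 7.63%). Without regard to agreement within a group, 26 of the 55 regions (47.3%) had a peak in a control tumor and none in a test tumor, and 3 (5.45%) the reverse, where the shares over all regions in gene windows were 22.04% and 17.5%.

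By gene, 6 of the 8 windows held at least 1 region found in both control tumors and no test tumor, as did 14.8% of all genes, and 0 of the 8 held the opposite kind, as did 8.05% of genes. The 6 were Ciita, Cd74, H2-Ab1, H2-DMa, H2-DMb1 and H2-Oa, so all 3 genes whose coverage overlapped between groups are among them and H2-Aa and H2-Eb1 are not, and 2 of the regions fall in the windows of 2 genes each. The 3 widest of the 11 control regions were at H2-Ab1 and H2-DMa. That of 776 bp (34261756 to 34262531) lay in H2-Ab1 upstream of its coding start, with peaks of 691 bp and 491 bp in the control tumors. That of 664 bp (34124623 to 34125286) lay in H2-DMa, over 284 bp and 512 bp. That of 612 bp (34257933 to 34258544) was at the annotated gene start of H2-Ab1, over 215 bp and 612 bp. All 11 were narrower than 1 kb, with a median of 446 bp, where regions of this kind over all gene windows had a median of 404 bp.

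The 13 regions present in all 4 tumors differed in width as well. Their median covered length was 1654 bp in control 1 and 1303 bp in control 2, but 1063 bp in test 1 and 902 bp in test 2. In gene windows as a whole it was 1338 bp, 1298 bp, 1397 bp and 1244 bp. Both control tumors were wider than both test tumors in 5 of the 13 (38.5%, against 12.9% of shared regions in gene windows), and both test tumors were wider in 1 (7.69% against 19.9%).

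**Figure D4:**
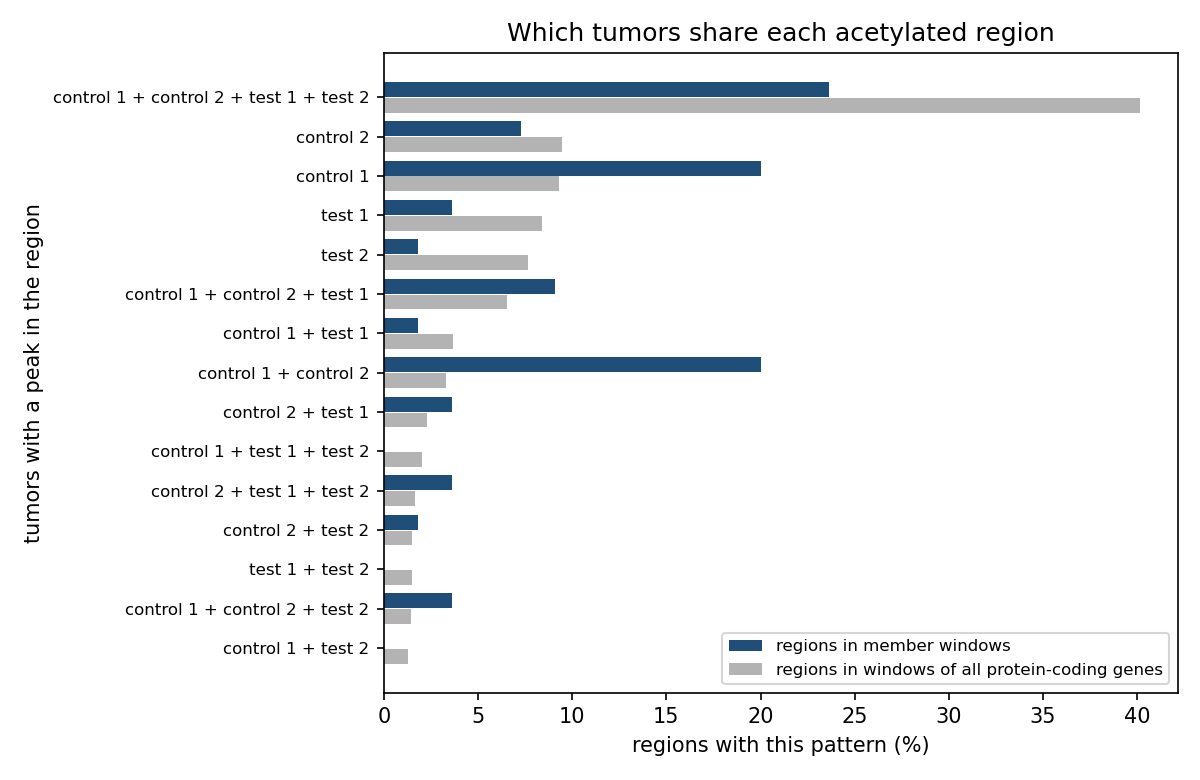
Bars give the percent of acetylated regions with each combination of tumors, for the 55 regions in the 8 windows (blue) and for the 72149 regions in windows of all protein-coding genes (grey). Regions in both control tumors and no test tumor made up 20% of the blue set and 3.28% of the grey, and those in all 4 tumors 23.6% and 40.1%.

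Peaks within 1 kb of the annotated gene start were found at 5 of the 8 genes in control 1 and 5 in control 2, against 3 in test 1 and 1 in test 2. From 250 bases before to 50 bases after the start the numbers were 3, 1, 1 and 1, so control 2 no longer stood above the test tumors. Over all genes the shares within 1 kb were 53.6%, 53.9%, 54.1% and 52.0%. At H2-Ab1 and Cd74, 2 of the 8, both control tumors had such a peak and neither test tumor did, as at 0.533% of all promoters, and the opposite was seen at 0, against 0.301%. For H2-Ab1 this is the annotated gene start, 5520 bp upstream of the start of its coding transcripts, where all 4 tumors had a peak as given above. For Cd74 the 2 starts coincide. The peak counted for H2-DMa in each tumor, which is the only one in test 2, lies in the region shared with the start of Brd2.

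Width bears on all of these counts, since most regions were narrow and the lists give no peak height. Among the 55 regions the median width was 449 bp and 42 were under 1 kb (76.4%), where the median over gene windows was 595 bp and 63.1% were under 1 kb. With only peaks of at least 1 kb kept, Ciita alone still separated the groups (11.3%, 10.6%, 10.5% and 4.08%). Coverage by such peaks was then 6.54% in control 1 and 0% in the other 3 tumors at H2-Aa, 5.802% and 0% likewise at H2-Eb1, and 0% in all 4 at H2-Ab1, while at Cd74 it was 8.997%, 4.41%, 5.08% and 3.02%.

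Other class II chain genes beside these showed values of the same order. Coverage was higher in both control tumors at 3 of 4 and in both test tumors at 0, against 12.9% and 18% of all covered genes. The median difference was -3.62 points. H2-Ob, the beta chain of H2-O, had 5.16%, 5.07%, 3.43% and 2.60%. H2-Eb2, a beta chain gene little expressed in most cells, had 7.998%, 7.75%, 4.19% and 0%, and H2-Ea-ps, the alpha chain of I-E that is a pseudogene in the reference strain, 7.13%, 8.15%, 4.98% and 0%. In the remaining gene, H2-DMb2, the groups overlapped. The windows of H2-Ob and H2-Eb2 overlap those of the classical chains and that of H2-DMb2 overlaps H2-DMa, and all covered bases of the H2-Ea-ps window lie in that of H2-Eb2 too (3.04 kb, 3.48 kb, 2.13 kb and 0 kb), so these values are not separate observations. H2-Ob had a promoter peak in test 1 alone, which covered 8.30% of its promoter.

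Among 15 genes of class II transcription, both control tumors were higher at 6 and both test tumors at 1, with a median difference of 0 and Irf4 at 0 in every tumor. Over all covered genes the shares were 12.9% and 18%, against which the counts of subunit genes below are read too. Irf8, a factor of dendritic cell and macrophage development, had 4.92%, 2.17%, 1.05% and 0.396%, and Spi1, which encodes the myeloid factor PU.1, had 15.7%, 15.2%, 13.5% and 7.42%. The interferon pathway genes Irf1 (48.7%, 54.1%, 43.3% and 41.2%), Socs1 (6.20%, 8.56%, 5.57% and 4.51%) and Ifngr2 (22.6%, 18.6%, 17.9% and 10.5%) were higher in both control tumors as well. Of 7 genes for subunits of the factors that bind the X and Y boxes, both control tumors were higher at 1 and both test tumors at 1. Nfyc, an NF-Y subunit, had 24.6%, 22.1%, 19.9% and 18.03%. Rfx5, a subunit of RFX, went the other way with 8.51%, 9.51%, 9.63% and 9.96%. In the other 5, Creb1, Rfxap, Rfxank, Nfya and Nfyb, named after their values were seen, the groups overlapped and the differences ran from 0.0406 to 1.80 points.

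Of 9 genes for peptide processing in endosomes, both control tumors were higher at 3, Ctss, Ctsd and Lgmn, and both test tumors at 0, with a median difference of -3.05 points. The shares over all covered genes were 12.9% and 18%, for this list and the next. Of 8 genes for costimulation of T cells, both control tumors were higher at 5, Cd83, Cd86, Cd40, Pdcd1lg2 and Icosl, and both test tumors at 0, with a median of -0.647 points. These 8 genes are named here after their values were seen. Cd40 was counted on values near 0, with 0.270% and 0.279% in the control tumors and 0% in both test tumors. Cathepsin S, which trims the invariant chain, had 6.10%, 7.30%, 5.68% and 1.62% at Ctss. Cd83, a surface protein of mature dendritic cells, had 14.1%, 5.55%, 3% and 1.96%.

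MHC class I presentation genes on the same chromosome did not show this order. Of 7, both control tumors were higher at 0 and both test tumors at 1 (Tapbp), against 12.9% and 18% of all covered genes. The median difference was 1.82 points and the means were 14.5%, 17.0%, 14.6% and 19.96%. The genes Psmb9, Tap1, Psmb8 and Tap2 lie side by side, so 4 of the 7 windows share peaks and are not separate observations. Tap1, a subunit of the transporter that feeds peptides to class I molecules, lies between the H2-DMb1 and H2-Ab1 windows and had 13.0%, 15.7%, 12.0% and 20.4%, with its highest value in test 2, the tumor with the lowest values at the classical class II chains. Tapbp and these 4 genes were chosen after their values were seen.

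Markers of the cells that carry class II are read against the shares over all genes, 12.9% higher in both control and 18% higher in both test tumors. Of 14 macrophage and monocyte markers both control tumors were higher at 6 and both test tumors at 0, the median difference was -1.11 points, and coverage summed over the list was 208.5%, 179.9%, 172.3% and 130.9%. For 10 dendritic cell markers the counts were 2 and 0, the median -0.477 and the sums 28.4%, 24.1%, 25.5% and 12.6%, with Cd209a at 0. For 8 B cell markers they were 2 and 1, -0.0399, and 45.2%, 38.0%, 44.8% and 38.7%, with Cd79b at 0 in animals that lack their own B cells. The macrophage genes C1qa and Cd68 are named after their values were seen. C1qa had 23.0%, 16.1%, 10.8% and 5.04%, while Cd68 had 31.5%, 40.6%, 38.3% and 32.7%. The window of C1qa overlaps those of C1qb and C1qc, which are also among the 6. These markers are thus not separate observations, and the sums count their shared peaks more than once.

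For markers of other cells the counts varied by list. Both control tumors were higher at 6 of 8 endothelial markers (summed 32.0%, 23.9%, 21.4% and 15.1%, Tie1 at 0), 3 of 8 fibroblast markers (24.4%, 22.3%, 19.4% and 13.3%, Lum at 0) and 2 of 6 basal epithelial markers (50.1%, 34.2%, 50.2% and 21.2%), and both test tumors at 0 of each. Emcn, among the 6 endothelial markers and named after its values were seen, was counted on values near 0 (0.269%, 0.285%, 0.218% and 0%). Of 10 T cell markers, both control tumors were higher at 3 and both test tumors at 4 (45.04%, 43.1%, 44.3% and 33.9%), and of 12 luminal markers at 0 and 3 (355.1%, 310.5%, 356.6% and 345.7%). Among the 4 T cell markers higher in both test tumors are Cd3g and Cd3d, named after their values were seen, whose windows hold the same covered bases. Of 10 genes not expected in breast tumors the counts were 1 and 1, the sums 63.1%, 44.1%, 40.1% and 47.5%, and 5 were at 0 (Neurod1, Snap25, Alb, Pdx1 and Ins2). Most of these sums came from the window of Tnnt2, named after its values were seen (46.5%, 26.6%, 24.4% and 35.8%). In each tumor 0 promoters of this list held a peak, so a window can be covered without a peak at its gene's promoter. The part of cell make-up in the class II values was not tested.

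**Figure D5:**
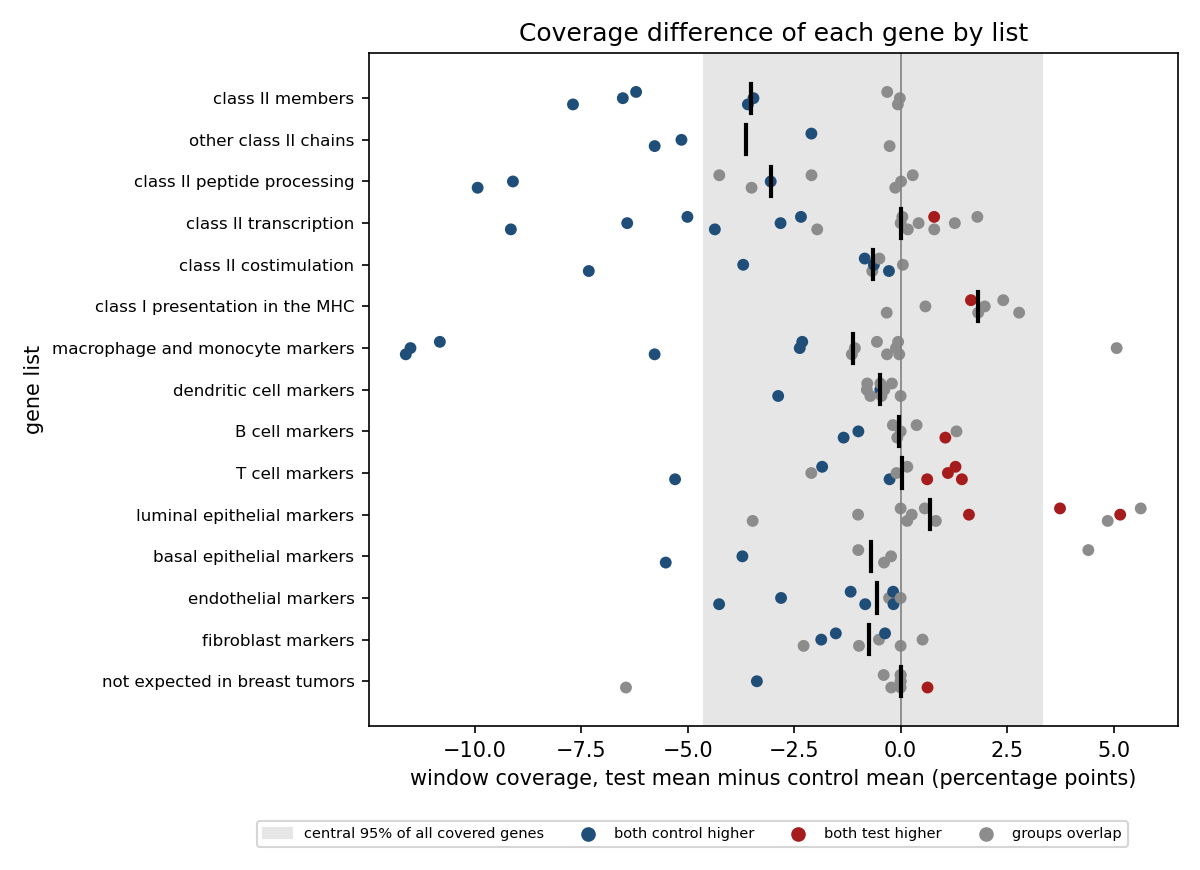
Each point is a gene, placed by its test mean minus control mean of window coverage in percentage points, with black bars at list medians and a grey band over the central 95% of all covered genes (-4.62 to 3.31). The class II genes and the other class II chains have medians of -3.52 and -3.62, the class I presentation genes of the MHC 1.82.

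The order control 1, control 2, test 1, test 2 from highest to lowest coverage was shown by 5 of the 8 genes and by 4.49% of all covered genes. Outside these windows, the 5 genes whose coverages in the 4 tumors lay nearest to the mean of the 8, by Euclidean distance in percentage points, were Rnf216 (0.875), Phlda2 (0.961), Gja1 (0.965), Rab8b (0.987) and Nol10 (1.10). Rnf216, which encodes a ubiquitin ligase, had 9.24%, 8.92%, 6.94% and 4.58%. The likeness rests on 4 values a gene.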

How the data were processed

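H3K27ac was measured by chromatin immunoprecipitation and sequencing in 4 bulk breast tumors, 2 control and 2 test, grouped by the genotype per the labels. The tumor numbers only name tumors. The authors aligned reads to mm10 with BWA (version not given in the sources used here), called peaks with MACS2 in each tumor against its matched input at a q-value of 0.01, and deposited cleaned lists merged at 200 bp that give a chromosome, a start and an end in base pairs. The deposited lists hold no count, height or score, so read depth is unknown and peak number and width mix depth with acetylation. What the cleaning removed was not stated, and the smallest gap between peaks was 201 bp. The inputs were not analysed here. The aligned reference is that of C57BL/6J, whose MHC haplotype differs from that of Balb/c, and the reads lost to this were not measured here.

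Genes came from GENCODE release M21 (21938 protein-coding genes on 21 chromosomes). Coverage is the percent of a window (gene body plus 20 kb either side) lying in peaks. Overlapping or touching peaks of the 4 tumors were joined into regions, and a tumor had a region with at least 1 bp of overlap. Promoters were 1 kb either side of the gene start. Coding starts within 500 bp were joined. An exact permutation test of 2 tumors against 2 cannot go below p = 0.333 and no test was run, so values are described beside the same over all genes with a peak in any tumor. Members and lists were chosen with earlier results of these data known. Genes named were the 8 members, genes of the other class II chain and transcription lists whose groups did not overlap, genes with an acetylated promoter in a window, the 3 widest regions of each one-group kind, regions of all 4 tumors at a member promoter, and the 5 genes nearest in pattern. Any other gene is said to be chosen after its values were seen, except list genes named for being at 0 and H2-DMb2, the remaining gene of its list. Alternatives changed the flank, gene bodies, peak width, peak number, joining, scaling, overlap and promoter definition and left out each tumor. Python 3.11.15, numpy 2.4.6, pandas 2.3.3 and matplotlib 3.10.9 were used, and coverage and region calls were tested on simulated data.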

Additional observations from a re-analysis of the deposited data

How the results depend on the processing

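Depth and peak height are unknown, so a narrow class II peak near the caller's threshold can be lost or gained with depth, and no test was run, since an exact permutation test of 2 tumors a group cannot go below p = 0.333. The median coverage difference of the 8 genes, -3.52 points, was -6.86 over gene bodies, -1.49 with peaks of at least 1 kb and -6.11 with peaks within 1 kb joined, and from -4.47 to -2.62 when each tumor was left out. Genes higher in both control tumors, 5 of 8, numbered 1 with peaks of at least 1 kb and 5 to 7 when a tumor was left out, where fewer than 5 could not occur, and genes higher in both test tumors 0 to 2. H2-DMa and H2-Oa were higher in the test tumors without control 2 and in the control tumor without control 1. The 11 regions of both control tumors alone became 0 with peaks of at least 1 kb, 7 with equal peak numbers, 3 with peaks joined and 13 to 23 with a tumor left out, when 1 tumor in place of 2 decides a group. The 0 regions of both test tumors alone became 1 with a flank of 50 kb and 0 to 2 with a tumor left out. Promoters with a peak became 2 in test 2 at 2.5 kb, 3, 1 and 1 in control 1, control 2 and test 1 from 250 bp before to 50 bp after the start, 2 in test 2 at any coding start, and 2, 1 and 1 in control 1, control 2 and test 1 with peaks of at least 1 kb. With all 4 tumors kept, 43 of 56 single-gene values moved by less than 1 SD and 13 by more. This SD is that of the gene's difference over the 4 pairs of a test and a control tumor, which share tumors. Of the 13, 12 were among the 35 values of the 5 genes whose groups did not overlap. No paired analysis was possible because the tumor numbers are names given in accession order and pair no samples.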
